A study of Mus musculus with 27 samples.

Results

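The addition of Activin A to cells that already received CHIR99021 was examined in 6 of the 27 mouse RNA sequencing libraries of the study, the 3 IM5 libraries against the 3 IM4 libraries, chosen by their titles. The cells came from an XY embryonic stem cell clone that carries the alleles Tesco-CFP and R26-rtTA on an F1 background of C57BL/6 and CBA. The study states that clone 7 served for most of its differentiation work. The clone had passed through an epiblast stem cell-like stage (EpiSC) and an early mesoderm stage (M) before the medium that gives each group its name. The IM4 medium supplied BMP4 at 20 ng/ml, bFGF at 5 ng/ml, retinoic acid (RA) at 100 nM and CHIR99021, an inhibitor of GSK3 that raises WNT signaling, at 0.3 µM during 3.5 days. IM5 differed from IM4 in 1 component, Activin A at 10 ng/ml. The EpiSC medium, shared by both groups, had also held Activin A, at 20 ng/ml for 60 hours, and the M medium had held LY294002, a phosphatidylinositol 3-kinase inhibitor, at 10 µM for 36 hours together with bFGF and BMP4. IM2 and IM3, which had RA but no CHIR99021, gave the same contrast of media with and without Activin A and are used below for the interaction of the 2 factors. The study calls the libraries of a group biological replicates without saying whether these were separate cultures, and it reports 1 clone. The p-values therefore measure the spread between libraries, estimated over all 9 groups of the series.

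Activin A is a dimer of inhibin beta A subunits. Like Nodal, it binds type II and type I activin receptors, which phosphorylate SMAD2 and SMAD3; these enter the nucleus with SMAD4 and act with partners such as FOXH1 on target genes that include *Nodal* itself and its secreted antagonists *Lefty1* and *Lefty2*. In the early embryo this pathway maintains the epiblast and drives formation of primitive streak, mesendoderm and node. WNT signaling is required in the same place, and in the extending tail it maintains caudal progenitors.

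Total expected counts ranged from 47616842 to 63071749 in IM4 and from 59522411 to 71076876 in IM5. The groups differed in a property of the libraries that covers all genes, the GC trend, which is the median log2 deviation from the gene mean in the 25% of genes with the highest GC content minus that in the 25% with the lowest. It was -0.202, -0.192 and -0.359 in IM4 and 0.435, 0.15 and 0.129 in IM5, a difference of 0.489 (IM5 0.238 ± 0.171, IM4 -0.251 ± 0.0936, SD, n = 3; two-sided exact permutation test, p = 0.1, the smallest that 3 against 3 can give). The libraries of the groups did not overlap, and IM5 replicate 1 stood apart from the others. Without it the difference was 0.39. In 4 equal bins of genes from the lowest to the highest GC content, median log2 fold changes were -0.206, -0.07, 0.046 and 0.274. The 6 adult red blood cell genes, which mark mature red blood cells, summed to 8.32 to 19.7 CPM in IM4 and 0.664 to 0.859 CPM in IM5 (exact p = 0.1). IM3 and M libraries also had a negative GC trend and 6.14 to 21.3 CPM of these genes, whereas EpiSC, IM1 and iSLC libraries had a positive trend and 0.589 to 1.38 CPM. The 2 measures did not always go together: IM2 replicate 1 had a negative trend (-0.099) with 0.375 CPM, and ESC replicate 3 had a positive trend (0.064) with 27.6 CPM. No date or run is given in the labels, IM4 and IM5 lie wholly on opposite sides of this division, and the GC trend and Activin A therefore cannot be told apart. Calls were recomputed with an offset for the GC trend, and calls that it ended are named beside the genes. It also added calls, and examples of lists that gained them are given at the end.

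**Figure D1:**
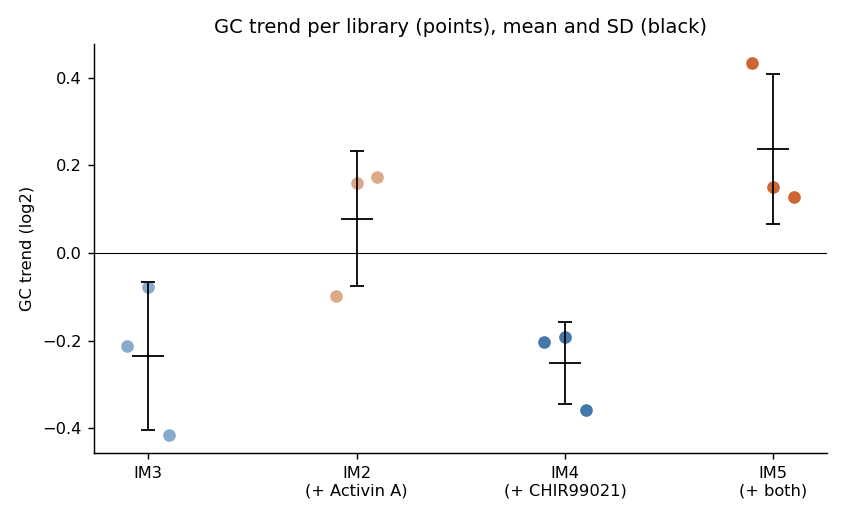
GC trend of each library (points; y axis in log2 units, the median deviation of genes with high GC content minus that of genes with low GC content) in the groups with RA, with the mean and SD in black, n = 3. The IM5 libraries lie at 0.129 to 0.435 and the IM4 libraries at -0.359 to -0.192.

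Between IM4 and IM5, 852 of 20839 genes tested were differentially expressed (4.09%). A gene was called differentially expressed (DE) when its Benjamini-Hochberg adjusted p in edgeR's quasi-likelihood test did not exceed 0.01, its fold was 2 or more and its normalized read count averaged 100 or more, both across the series and within IM4 or IM5. Normalized read counts are expected counts scaled to a common library size. DE genes were higher in IM5 in 548 cases (2.63%) and lower in 304 (1.46%), and 95 rises and 69 falls were at least 4-fold. At an adjusted p under 0.05 alone, with no other threshold, 9908 genes differed (47.5%; 24.5% higher and 23.1% lower). The libraries of the groups did not overlap in 851 DE genes, against 10830 of all genes tested (52%), with all IM5 libraries above all IM4 libraries in 26.4% and below them in 25.5%. With the GC offset 770 genes were called, 439 higher and 331 lower, of which 678 were among the 852.

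**Figure D2:**
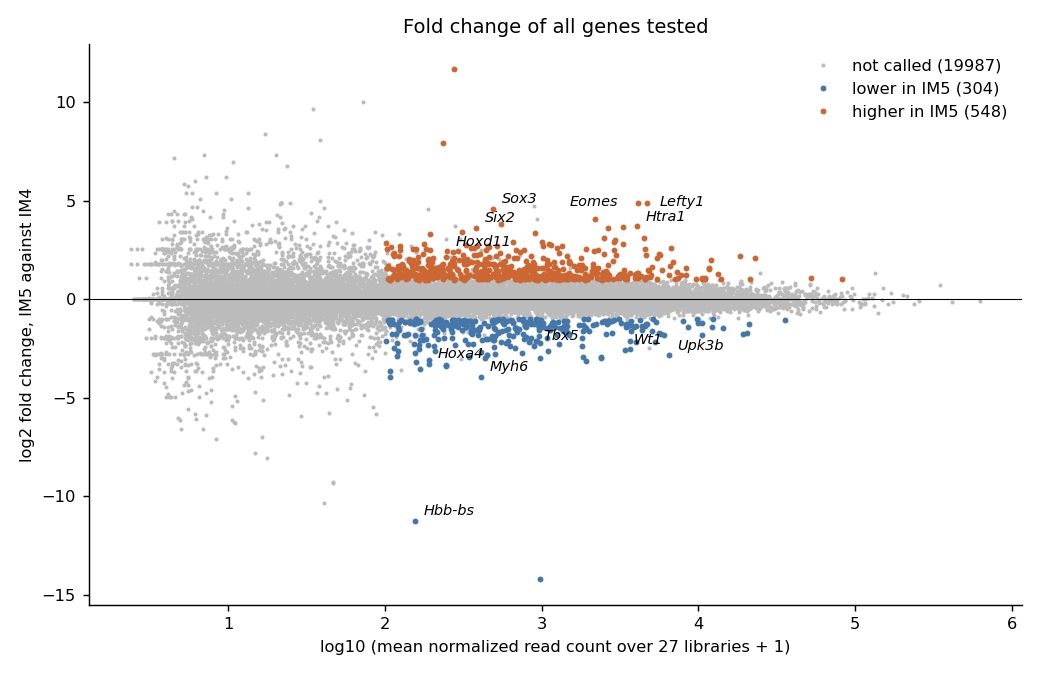
log2 fold change of IM5 against IM4 for all 20839 genes tested (y axis) against the mean normalized read count over all 27 libraries (x axis, log10 of the value plus 1). DE genes are in color, 548 higher and 304 lower in IM5. *Eomes* and *Lefty1* lie close together at a log2 fold change of 4.91 and 4.90.

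*Lefty1*, *Eomes* and *Hoxd11* were set as markers of this contrast with earlier results of these data known. Their values describe the contrast and are no test of it. *Lefty1*, a secreted antagonist of Nodal, had normalized read counts of 49.6, 18.9 and 17.6 in the IM4 libraries and 860, 721 and 898 in the IM5 libraries. *Eomes*, a T-box factor of the primitive streak and mesendoderm, had 63.3, 53.8 and 58.4 in IM4 and 1812, 1692 and 1733 in IM5. All IM5 values of both genes lay above all IM4 values, and *Eomes* varied little within each group. The log2 fold change was 4.90 ± 0.18 (SE) for *Lefty1* (edgeR adjusted p = 6.5e-17) and 4.91 ± 0.14 for *Eomes* (edgeR adjusted p = 1.16e-18). *Hoxd11*, a posterior Hox gene of the metanephric kidney and limb, had 146, 107 and 111 in IM4 and 546, 616 and 835 in IM5, a log2 fold change of 2.46 ± 0.19 (edgeR adjusted p = 4.89e-11).

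Over all genes tested, 2.63% rose and 1.46% fell at the thresholds, and in 52% the libraries of the groups did not overlap. The counts of each list below are to be read beside these shares. Among Nodal ligands, convertases and coreceptors, 2 of 8 members rose and 1 fell. *Nodal* itself had 108, 85.9 and 66.2 normalized reads in IM4 and 892, 711 and 633 in IM5, a log2 fold change of 3.12 ± 0.15 (edgeR adjusted p = 6.41e-15). In length-scaled TPM, *Nodal* stood at 1.31 in IM4 and 10.8 in IM5. *Cfc1*, an EGF-CFC coreceptor for Nodal, rose by a log2 fold change of 1.94 ± 0.22, but without IM5 replicate 1, which held 177 reads against 106 and 81.5, its mean fell under the count minimum at a log2 fold change of 1.57. Its call was also lost when only IM4 and IM5, or only the 15 IM libraries, were fitted. *Pcsk6*, a proprotein convertase that cleaves Nodal precursors, fell from 961, 883 and 892 to 353, 340 and 368 (-1.37 ± 0.07). *Furin*, another such convertase, did not reach the fold threshold (0.74 ± 0.08), nor did the coreceptor *Tdgf1* (0.93 ± 0.21).

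Antagonists and feedback genes of the pathway included 3 rises and no fall among 13 members, with a median log2 fold change of 0.41 against 0 for all genes tested. Besides *Lefty1*, these were *Lefty2*, whose counts went from 83.1, 35.9 and 22.1 in IM4 to 733, 741 and 855 in IM5, and *Pmepa1*, a membrane protein that sequesters receptor SMADs, which went from 1669, 1074 and 962 to 5815, 6193 and 5511. Their log2 fold changes were 4.09 ± 0.18 and 2.25 ± 0.12. IM4 replicate 1 was the highest IM4 library for *Lefty1*, *Lefty2* and *Pmepa1*, and all IM5 libraries lay above it. The inhibitory SMAD gene *Smad7* (0.73 ± 0.08) and the corepressor gene *Tgif1* (0.51 ± 0.06) stayed under the fold threshold, and *Skil* was at -0.01 ± 0.07.

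**Figure D3:**
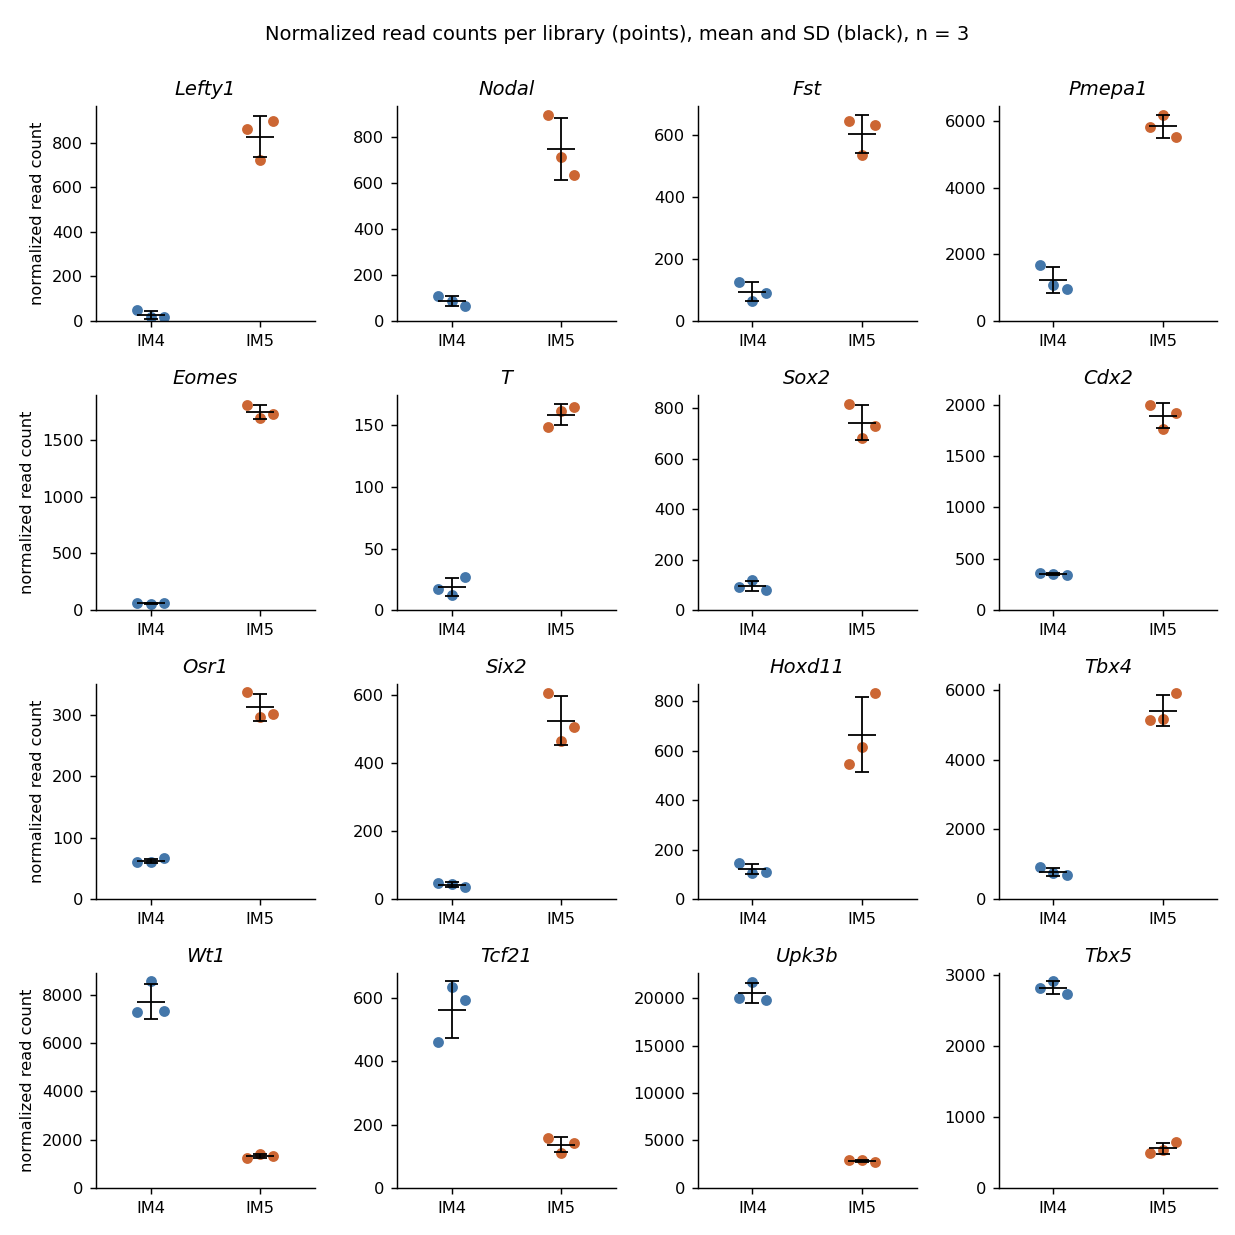
Normalized read counts (y axis, linear from 0) of 16 genes in each IM4 and IM5 library (points), with mean and SD in black, n = 3. In all panels the IM4 and IM5 libraries do not overlap; the first 12 genes are higher in IM5 and *Wt1*, *Tcf21*, *Upk3b* and *Tbx5* are lower.

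Genes for activin, inhibin and their binding proteins gave 3 rises and 1 fall among 9 members. *Fst*, which encodes the activin-binding protein follistatin, rose from 127, 66.1 and 89.3 to 644, 534 and 633 (2.71 ± 0.15; edgeR adjusted p = 1.33e-13), and the related *Fstl3* rose by 1.31 ± 0.13 on the log2 scale. *Inhba*, which encodes the subunit of Activin A, had 99.3, 54.8 and 81.6 in IM4 and 117, 219 and 188 in IM5 (1.16 ± 0.24; edgeR adjusted p = 0.000235). This call rested on a fold close to 2, and the log2 fold change was 0.95 without IM4 replicate 2 and 0.97 without IM5 replicate 2. *Tgfbr3*, a coreceptor that binds inhibin and TGF-beta, fell from 2684, 3416 and 3680 to 1650, 1461 and 1274 (-1.16 ± 0.10).

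Of 12 receptor, SMAD and cofactor genes only *Foxh1* was called, at 199, 219 and 212 in IM4 and 854, 650 and 617 in IM5 (1.75 ± 0.14; edgeR adjusted p = 9.6e-11). The other 11 were under the fold threshold, from -0.78 ± 0.06 for the type I receptor gene *Tgfbr1* to 0.55 ± 0.80 for *Acvr1c*, which had under 10 reads in all 6 libraries. Of these, 6 had an adjusted p of at most 0.01, and 5 of the 6 were lower in IM5, *Tgfbr1* and the type II receptor gene *Acvr2a* (-0.55 ± 0.07) the most. The summed CPM of the list was lower in IM5 (729 to 850) than in IM4 (903 to 950). Log2 fold changes were -0.21 ± 0.04 for *Smad2*, -0.08 ± 0.06 for *Smad3*, 0.20 ± 0.05 for the type I receptor gene *Acvr1b* and 0.07 ± 0.09 for the type II receptor gene *Acvr2b*.

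Sequence upstream of 4 of the rising genes is shown because SMAD3 and SMAD4 bind the box CAGAC and FOXH1 binds motifs of the form TGTNNATT; each line gives the 200 bases before the transcription start listed by RefSeq (GRCm38.p6), read 5′ to 3′ on the gene's strand, with matches of either motif on either strand in capitals.
Nodal, chr10:61417772-61417971, plus strand: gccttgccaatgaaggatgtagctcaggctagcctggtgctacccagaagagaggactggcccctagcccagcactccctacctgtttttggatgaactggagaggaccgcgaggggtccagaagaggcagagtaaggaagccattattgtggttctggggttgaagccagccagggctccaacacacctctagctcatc
Eomes, chr9:118477989-118478188, plus strand: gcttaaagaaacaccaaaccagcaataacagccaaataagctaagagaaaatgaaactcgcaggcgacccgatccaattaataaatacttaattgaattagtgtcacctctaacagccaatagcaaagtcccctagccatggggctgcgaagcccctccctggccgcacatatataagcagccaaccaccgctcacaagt
Evx1, chr6:52313298-52313497, plus strand: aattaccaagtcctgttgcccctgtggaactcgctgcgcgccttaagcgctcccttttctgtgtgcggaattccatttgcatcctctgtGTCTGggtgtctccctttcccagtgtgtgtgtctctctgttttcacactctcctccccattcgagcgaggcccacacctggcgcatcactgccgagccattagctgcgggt
Six2, chr17:85688255-85688454, minus strand: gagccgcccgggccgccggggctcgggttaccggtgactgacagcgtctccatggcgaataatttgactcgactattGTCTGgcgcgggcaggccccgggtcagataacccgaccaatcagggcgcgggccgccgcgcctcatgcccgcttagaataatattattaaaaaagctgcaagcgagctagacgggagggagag
The windows of *Evx1* and *Six2* each held 1 CAGAC box, on the opposite strand, starting 111 and 123 bases before the start site, and no window held TGTNNATT. CAGAC occurred in 35.5% and TGTNNATT in 8.47% of all 32851 windows of this length, and in 37.9% and 7.11% of the 745 windows that belong to 587 of the 852 DE genes. *Lefty1* and *Lefty2* were not among the windows.

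Mesendoderm and endoderm transcription factors followed with 7 rises and no fall among 21 members, and a median log2 fold change of 1.08. With the GC offset there were 7 rises and 1 fall. *Mixl1*, a homeobox gene of the primitive streak, rose from 38.5, 33.0 and 52.9 to 240, 228 and 243 (2.52 ± 0.13). *T*, which encodes Brachyury, rose from 17.4, 12.3 and 26.5 to 149, 162 and 165 (3.10 ± 0.31; edgeR adjusted p = 6.16e-09). The 3 IM5 libraries were close to each other for both genes. *Sox17* (1.9 ± 0.14), *Sox7* (1.14 ± 0.12), *Evx1* (2.72 ± 0.10) and *Lhx1* (1.17 ± 0.26) also passed the thresholds, and *Foxa2* reached 0.92 ± 0.10. The definitive endoderm marker *Cer1* was nearly absent, with raw counts of 2, 0 and 2 in IM4 and 0, 1 and 0 in IM5. *T* and *Lhx1* passed the minimum of 100 reads across the series through libraries of other groups, and lost their calls when only IM4 and IM5 were fitted, which left 5 rises. The axial mesendoderm genes *Gsc* (2.40 ± 0.36) and *Otx2* (4.74 ± 0.67) were under 100 reads, with means of 27.1 ± 2.38 and 41.4 ± 9.21 reads in IM5 and 4.92 ± 2.17 and 1.51 ± 0.846 in IM4. Levels in IM5 remained far from those of the M cells, which had a mean of 19821 reads for *Eomes*, 26796 for *T* and 16545 for *Mixl1*. The summed CPM of the list was lower in IM5 (455 to 482) than in IM4 (583 to 654), and its most abundant members, *Gata4* (-0.97 ± 0.07) and *Gata6* (-0.42 ± 0.06), were below the fold threshold in the lower direction.

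Caudal and neuromesodermal progenitor genes gave 9 rises and no fall among 20 members, and their median log2 fold change, 2.49, was the highest of the lists examined (2.46 with *Hes3*, at 0 in IM4 and under the floor of 3 counts in IM5, set to no change). The median gives equal weight to members with few reads, among them 3 that failed only the count minimum. The summed CPM of the list differed less, at 250 to 262 in IM4 and 343 to 373 in IM5. *Sox2*, a SOXB1 factor of the epiblast and of neural and neuromesodermal progenitors, had 93.1, 118 and 79.4 reads in IM4 and 816, 681 and 730 in IM5 (2.92 ± 0.11; edgeR adjusted p = 1.44e-16). Its relative *Sox3* went from 48.4, 34.9 and 29.8 to 926, 951 and 835 (4.60 ± 0.22), the fifth largest rise of all DE genes. M cells had levels similar to or lower than those of IM5, with means of 646 and 102 reads. The caudal homeobox genes *Cdx2* (362, 350 and 339 against 2002, 1761 and 1917 in IM5; 2.43 ± 0.08) and *Cdx1* (2.53 ± 0.24) rose with *Nkx1-2*, a marker of the caudal epiblast (2.91 ± 0.16). *Wnt8a* (2.50 ± 0.23) was also called, at means near the count minimum: it fell below it without IM5 replicate 2 or IM5 replicate 3. It also lost its call when only IM4 and IM5, or only the 15 IM libraries, were fitted. *Cdx1* lost its call with only the 15 IM libraries. In each of these fits the list had 7 rises. *Greb1* (1.03 ± 0.06) was just past 2-fold and was at 0.89 with the GC offset and 0.99 without IM4 replicate 2. *Fgf8*, a ligand of the caudal progenitor zone, was under the minimum, with 2.92 ± 0.763 reads in IM4 and 51.0 ± 18.5 in IM5 (4.11 ± 0.43).

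Pluripotency genes had 5 rises and no fall among 15 members. *Pou5f1*, which encodes OCT4, went from 386, 329 and 320 to 1795, 1473 and 1528 (2.22 ± 0.15; edgeR adjusted p = 5.31e-12), and *Utf1* from 88.1, 115 and 75.0 to 575, 526 and 560 (2.56 ± 0.20). *Nanog* rose by 1.43 ± 0.13, *Klf5* by 1.51 ± 0.13 and *Klf2* by 1.58 ± 0.14 on the log2 scale. In M the mean of *Pou5f1* had been 8092 reads and that of *Nanog* 1952, above both IM4 and IM5. Whether a few cells or many carried these transcripts cannot be told apart in bulk libraries, where the share of a cell type and the RNA per cell give the same signal.

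In presomitic mesoderm and somite genes, of which 21 of 23 could be tested, 5 rose and 2 fell. *Meox1*, a homeobox gene of the somite, rose from 293, 224 and 181 to 1288, 848 and 1036 (2.19 ± 0.14), and the forkhead genes *Foxc2* (1.61 ± 0.12) and *Foxc1* (1.34 ± 0.11) and the WNT amplifier *Rspo3* (1.22 ± 0.11) rose too. *Tcf15* was called (1.61 ± 0.19) but fell under the count minimum with the GC offset, at a log2 fold change of 1.08. It also lost its call when only IM4 and IM5, or only the 15 IM libraries, were fitted. The presomitic factor *Tbx6* was low in both media (19.0 ± 2.6 and 39.6 ± 11.2 reads), and *Msgn1* was at 0 in all 6 libraries.

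Regulators of intermediate mesoderm and kidney split by gene, with 7 rises and 1 fall among 28 members and a median of 0.80. *Osr1*, an early intermediate mesoderm factor, had 59.6, 60.4 and 66.2 reads in IM4 and 337, 297 and 302 in IM5 (2.33 ± 0.18; edgeR adjusted p = 6.14e-11). *Six2*, a gene of nephron progenitors, went from 48.4, 43.4 and 35.3 to 606, 465 and 506 (3.63 ± 0.17). *Hoxa11* (2.22 ± 0.10), *Hoxd11*, *Eya4* (1.36 ± 0.15), *Lhx1* and the matrix protein gene *Npnt* (1.35 ± 0.08) completed the rises. *Foxd1*, a marker of the kidney stroma, and *Gdnf*, the ligand for ureteric budding, were below 100 reads, at 52.7 ± 16.5 and 39.3 ± 4.34 in IM5 against 11.8 ± 1.7 and 7.31 ± 5.04 in IM4. *Pax2*, a nephric marker, was at 8.62 ± 1.24 reads in IM4 and 15.7 ± 1.81 in IM5, a difference that did not pass the test (0.85 ± 0.38; edgeR adjusted p = 0.0644).

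The fall in this list was *Wt1*, the zinc finger factor of kidney, gonad and mesothelium. Its counts were 7270, 8559 and 7322 in IM4 and 1219, 1401 and 1334 in IM5, a log2 fold change of -2.55 ± 0.10 (edgeR adjusted p = 6.5e-17). In TPM it dropped from a mean of 116 to 18.1. *Wt1* and *Osr1*, which are coexpressed in early intermediate mesoderm, thus moved in opposite directions, with no overlap of libraries in either.

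Genital ridge regulators, of which 22 of 23 were tested, gave 6 falls and 1 rise, with a median of -0.36. Besides *Wt1*, falls were called for *Tcf21*, a bHLH factor of coelomic mesoderm (462, 633 and 594 against 156, 110 and 141 in IM5; -2.05 ± 0.18), *Nr2f2*, the COUP-TFII nuclear receptor (2256, 2280 and 2323 against 810, 857 and 977; -1.38 ± 0.06), the LIM homeobox gene *Lhx2* (-1.19 ± 0.14), the GATA cofactor *Zfpm2* (-1.10 ± 0.07) and *Podxl* (-1.07 ± 0.09). *Podxl* was at -0.98 without IM5 replicate 3. *Gata4*, which is needed to start the genital ridge, reached a fold of 1.95, just under the threshold (18153, 21346 and 20172 against 10951, 9813 and 9766). *Lhx9*, another ridge factor, had 135 ± 22.8 reads in IM4 and 38.7 ± 5.62 in IM5 (-1.81 ± 0.22; edgeR adjusted p = 1.72e-07) and failed only the count minimum over all libraries. The rise, *Gadd45g*, a regulator upstream of *Sry*, was at 1.14 ± 0.12 and at 0.67 with the GC offset. *Nr5a1*, the central factor of the early gonad, stood at 6.2, 4.72 and 9.92 reads in IM4 and 15.2, 9.94 and 12.9 in IM5 and did not differ by the test (0.88 ± 0.42; edgeR adjusted p = 0.0861).

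Mesothelial and coelomic epithelium genes fell in 12 of 24 members and rose in none, with a median log2 fold change of -1.15. The uroplakin gene *Upk3b*, a mesothelial marker, had 19957, 21743 and 19832 reads in IM4 and 2957, 2898 and 2715 in IM5 (-2.84 ± 0.18; edgeR adjusted p = 1.21e-12), and *Upk1b* fell by 2.38 on the log2 scale. *Bnc1*, a zinc finger gene of mesothelium, went from 7128, 8527 and 8584 to 1224, 1019 and 907 (-2.94 ± 0.14). The mucin gene *Muc16* (-3.15 ± 0.25), the membrane protein gene *Lrrn4* (-1.59 ± 0.09) and the T-box gene *Tbx18* (-2.84 ± 0.11) belonged to the same set. *Igfbp5* (-1.39 ± 0.09) and the WNT amplifier *Rspo1* (-1.36 ± 0.18) fell as well. In these genes every IM5 library was below every IM4 library, which was also so in 25.5% of all genes tested. *Bnc2* (-1.14 ± 0.13) was at -0.95 without IM5 replicate 1, *Mgarp* (-1.07 ± 0.16) at -0.99 without IM4 replicate 2, -0.92 without IM5 replicate 2 and -0.97 without IM5 replicate 3, and *Crb2* (-1.01 ± 0.07) lost its call in several alternatives, down to -0.92 without IM5 replicate 3. The mesothelial marker *Msln* was at 126 ± 24.2 and 56.5 ± 5.4 reads, under the count minimum, and the keratin gene *Krt19* changed little (-0.27 ± 0.07).

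Lateral plate and heart field factors changed in both directions. *Tbx4*, the hindlimb T-box gene, rose from 905, 737 and 678 to 5126, 5156 and 5919 (2.81 ± 0.10; edgeR adjusted p = 5.45e-17), and *Pitx1*, which acts upstream of it in the hindlimb, from 3930, 3689 and 2663 to 17407, 15640 and 16817 (2.28 ± 0.11). *Tbx5*, the forelimb and heart T-box gene, fell from 2808, 2909 and 2728 to 495, 530 and 644 (-2.34 ± 0.12; edgeR adjusted p = 1.07e-14). The order of both T-box genes was therefore reversed between the media: in TPM, *Tbx5* was at 23.3 and *Tbx4* at 7.81 in IM4, and 4.35 and 52.5 in IM5. *Gata5*, a heart field gene, fell with *Tbx5* (-2.23 ± 0.13), and *Isl1* (1.80 ± 0.09), *Foxf2* (2.14 ± 0.14) and *Prrx1* (1.09 ± 0.09) rose. In all, 5 of 24 members rose and 2 fell.

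Cardiac muscle genes, which mark cardiomyocytes, fell in 6 of 18 members and rose in none. *Myh6*, the atrial myosin heavy chain gene, had 254, 422 and 502 reads in IM4 and 24.6, 34.3 and 17.9 in IM5 (-3.93 ± 0.38; edgeR adjusted p = 3.48e-09). *Myl7* (-2.96 ± 0.27), *Myl4* (-2.46 ± 0.17), *Ttn* (-1.91 ± 0.26), *Actc1* (-1.71 ± 0.17) and *Myh7* (-1.57 ± 0.20) were the others. The summed level of the list was 230 to 243 CPM in IM4 and 144 to 191 CPM in IM5. The smooth muscle list, by contrast, was higher in sum, at 3067 to 3574 against 4277 to 4750 CPM, with 1 of 14 members called, *Acta2* (1.07 ± 0.09), which was at 0.99 without IM5 replicate 1.

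Hox genes, whose order along each cluster follows their order along the body axis, moved according to that order most clearly in the HoxA cluster. HoxC and HoxD followed it in part. The 4 HoxA genes examined up to paralogue group 5 fell, and the 4 of groups 9 to 13 rose. *Hoxa4* fell most, from 455, 570 and 440 reads to 27.9, 55.1 and 70.5 (-3.27 ± 0.20), and *Hoxa13* rose most in its cluster, from 308, 194 and 238 to 1206, 1164 and 1423 (2.37 ± 0.12). *Hoxa5* (-1.20 ± 0.16) was at -0.97 without IM5 replicate 1. In HoxC, *Hoxc4* (-1.43 ± 0.17), *Hoxc5* (-2.06 ± 0.12) and *Hoxc8* (-1.57 ± 0.16) fell and *Hoxc9* (1.42 ± 0.15) and *Hoxc10* (1.84 ± 0.13) rose. *Hoxc6*, which lies between *Hoxc5* and *Hoxc8*, was not called (-0.22 ± 0.11). In HoxD, *Hoxd10* (1.60 ± 0.16), *Hoxd11* and *Hoxd13* (1.77 ± 0.18) rose, and *Hoxd1* and *Hoxd3* were lower but under the count minimum (-1.27 ± 0.25 and -1.79 ± 0.25). *Hoxd4* (-0.56 ± 0.16) and *Hoxd8* (-0.66 ± 0.12) stayed under the fold threshold, and *Hoxd9* did not change (0.01 ± 0.09). None of the 10 HoxB genes was called, and their log2 fold changes ranged from -0.37 for *Hoxb1* to 0.72 for *Hoxb13*. Over the 38 genes examined, 9 rose, all of groups 9 to 13, and 7 fell, none of them of groups 9 to 13, with medians of -1.23 in groups 1 to 5, -0.02 in groups 6 to 8 and 1.73 in groups 9 to 13. Exons of *Hoxb3*, *Hoxd3* and *Hoxd4* overlap other annotated genes by more than 50% of their length, so their counts are uncertain.

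**Figure D4:**
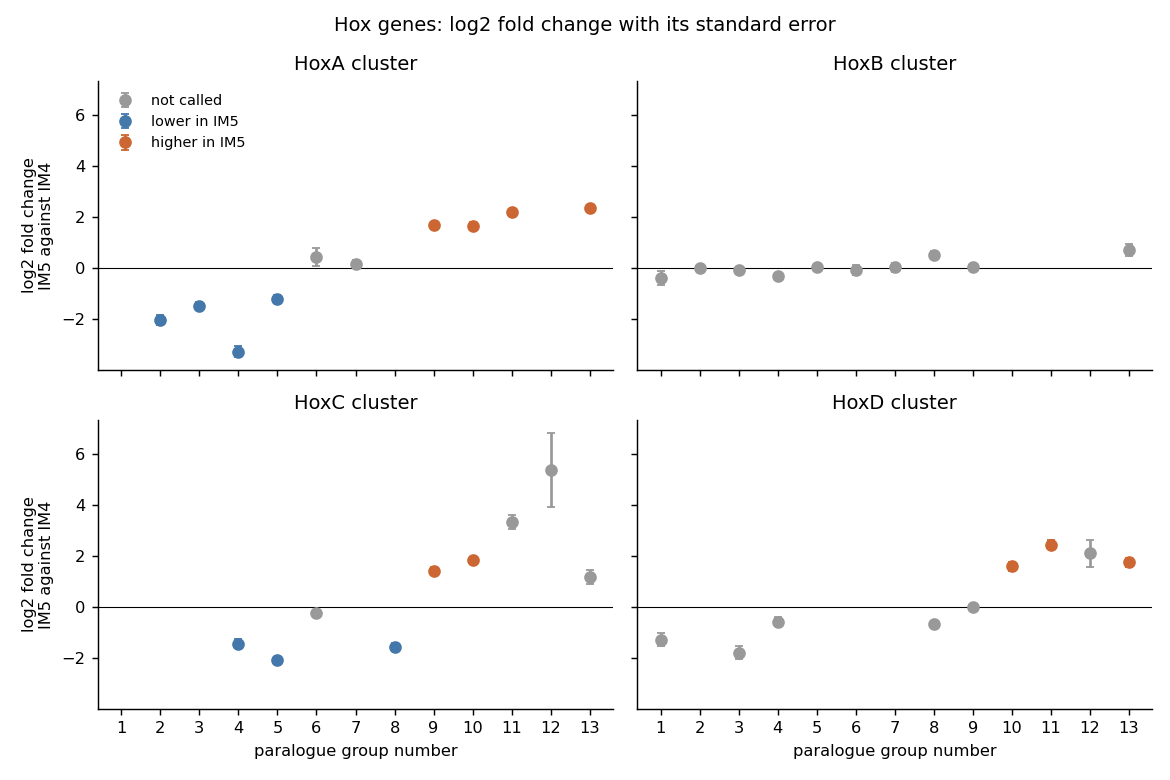
log2 fold change of IM5 against IM4 (y axis) with its standard error for the 38 Hox genes examined by paralogue group number (x axis) in each cluster; color marks the DE calls. The HoxA genes shown up to group 5 lie between -3.27 and -1.20 and groups 9 to 13 between 1.66 and 2.37, whereas HoxB lies between -0.37 and 0.72; *Hoxc12* was at 0 in all IM4 libraries, so its fitted value of 5.39 is no measure of its fold.

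WNT target and feedback genes had 4 rises and 1 fall among 24 members. *Sp5* (48.4, 36.8 and 36.4 against 362, 270 and 271; 2.91 ± 0.16), the antagonist gene *Dkk1* (2.11 ± 0.09), *Nkd1* (1.48 ± 0.08) and *Lef1* (1.36 ± 0.08) rose. *Axin2*, a general target of the pathway, did not pass the thresholds, at 2016 ± 85.3 reads in IM4 and 1823 ± 117 in IM5 (-0.15 ± 0.06). The fall was *Sfrp1*, a secreted WNT antagonist (19590, 21250 and 20288 against 5261, 5550 and 6468; -1.82 ± 0.09).

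BMP response genes had 4 rises among 22 members, *Bmp2* (1.49 ± 0.07), *Msx2* (1.19 ± 0.08), *Id4* (1.17 ± 0.14) and *Bmper* (1.02 ± 0.09), of which *Bmper* dropped to 0.96, 0.97 and 0.97 without IM4 replicate 2, IM4 replicate 3 or IM5 replicate 1. FGF feedback genes had 1 rise, *Etv4* (1.02 ± 0.06, 0.49 with the GC offset and 1.00 without IM5 replicate 1), and 1 fall, the receptor gene *Fgfr2* (-1.08 ± 0.08), among 19. In the retinoid list, 2 of 22 rose and 2 fell, beside 2.63% higher and 1.46% lower over all genes tested. *Aldh1a2*, which makes RA in trunk mesoderm, had 324, 376 and 304 reads in IM4 and 113, 84.9 and 96.4 in IM5 (-1.77 ± 0.14), and *Aldh1a3*, which catalyzes the same step, had 115, 76.5 and 84.9 and 291, 288 and 311 (1.70 ± 0.19). The RA-degrading enzyme gene *Cyp26a1* (0.50 ± 0.14) stayed under the fold threshold, as did the RA receptor gene *Rarb* (-0.93 ± 0.14). *Tgm2* (1.10 ± 0.11) was at 0.83 with the GC offset, and *Crabp1* (-1.05 ± 0.16) at -0.93 to -0.97 without IM4 replicate 2, IM5 replicate 2 or IM5 replicate 3.

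Blood and endothelial genes moved in different directions. The embryonic globin genes *Hbb-y* (383, 532 and 586 against 33.0, 52.4 and 33.8), *Hbb-bh1* (887, 1174 and 1344 against 129, 71.4 and 127) and *Hba-x* (848, 1143 and 1420 against 132, 96.7 and 111) fell, by 3.65, 3.38 and 3.32 on the log2 scale. In M they had means of 0 to 1.84 reads. *Hbb-y* fell under the count minimum over all libraries when any of the IM4 libraries was left out. The primitive erythroid list summed to 46.3 to 69.9 CPM in IM4 and 21.4 to 26.3 CPM in IM5, with 3 falls and 1 rise, *Tal1* (1.00 ± 0.15, 0.70 with the GC offset, 0.84 without IM4 replicate 1, 0.98 without IM4 replicate 2 and 0.99 without IM5 replicate 3), among 11 tested. The 3 falls were these embryonic globin genes. Of the 11, 4 had a log2 fold change above 0 and 7 below. The erythroid factor genes were low and differed in direction. Raw counts of *Gata1* were 7, 15 and 18 in IM4 and 2, 4 and 2 in IM5, and those of *Klf1* were 4, 28 and 10 in IM4 and 27, 14 and 17 in IM5. The adult globin gene *Hbb-bs* was at 115, 391 and 387 reads in IM4 and at 0 in all IM5 libraries, so that it was at least 109-fold lower when 3 counts per library are taken as the floor. Adult globin transcripts were also in M (mean 460 reads for *Hbb-bs*) and were nearly absent from IM2 (mean 0.997), and the part of the division of libraries described above in these values was not tested. *Hba-a1* (-3.92 ± 0.49), which fell under the count minimum without IM4 replicate 2 or IM4 replicate 3, and *Hba-a2* are near-identical copies, so the split of their reads is uncertain.

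Endothelial genes had 6 rises and 1 fall among 14 members, and 3 rises and 2 falls with the GC offset. *Vwf* (1.26 ± 0.19), *Flt1* (1.09 ± 0.10) and *Pecam1* (1.03 ± 0.10) kept their calls with the offset, and *Etv2* (1.26 ± 0.15), *Sox18* (1.16 ± 0.12) and *Erg* (1.06 ± 0.14) did not, at 0.89, 0.65 and 0.97. *Pecam1* was at 0.96 without IM4 replicate 2 and 0.97 without IM5 replicate 1, *Flt1* at 0.98 and *Erg* at 0.92 without IM4 replicate 2. The fall was *Tek*, an angiopoietin receptor gene (4182, 4637 and 4991 against 1906, 1732 and 1765; -1.35 ± 0.08). Of 6 tested megakaryocyte and macrophage genes none was called, and 5 of 13 listed were at or under 3 counts in all 6 libraries.

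Smaller counts came from the remaining lists, beside 2.63% higher and 1.46% lower over all genes tested. In the neural list 1 of 13 tested members rose, *Tubb3* (1.02 ± 0.12), which was at 0.73 with the GC offset, 0.94 without IM4 replicate 3 and 0.86 without IM5 replicate 1. Epithelial and mesenchymal genes gave 3 rises, *Twist2* (1.49 ± 0.10), *Snai1* (1.21 ± 0.10) and *Vim* (1.03 ± 0.06), and 1 fall, *Cdh3* (-1.12 ± 0.07), among 18. With the GC offset *Snai1* was at 0.80 and *Vim* at 0.93, and *Vim* was at 0.98 without IM5 replicate 1. Collagen chains gave 3 rises, led by *Col9a1* (1.72 ± 0.11), and 2 falls, the basement membrane chains *Col4a5* (-1.09 ± 0.07) and *Col4a6* (-1.03 ± 0.07), among 22. *Col2a1* (1.12 ± 0.13) was at 0.61 with the offset, and *Col4a6* at -0.96 without IM4 replicate 3 or IM5 replicate 3.

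Further genes outside these lists were among the 12 largest rises and the 12 largest falls whose libraries did not overlap. *Htra1*, a secreted serine protease gene, rose from 1549, 883 and 871 to 14175, 14344 and 14498 (3.71 ± 0.14; edgeR adjusted p = 1.29e-16). *Igfbp7*, a secreted binding protein of insulin-like growth factors, rose from 95.6, 69.9 and 59.5 to 907, 932 and 885 (3.61 ± 0.17), *Pcsk1n* by 3.83, *Vrtn* by 3.67 and *Adgra1* by 3.40 on the log2 scale. *Nell1* (235, 267 and 277 against 22.0, 16.3 and 28.8; -3.54 ± 0.23), *Shisa3* (2265, 2601 and 2396 against 287, 217 and 322; -3.14 ± 0.13) and *Pkhd1l1* (-3.06 ± 0.17) were among the falls. *Gm21887*, a predicted gene on chromosome X, had 1.24, 4.72 and 2.21 reads in IM4 and 335, 952 and 941 in IM5 (7.95 ± 1.25). Both extremes of the comparison were uncertain. *B430305J03Rik* (0 in all IM4 libraries and 91.5, 495 and 645 in IM5) lies wholly within *Rap2b* on the opposite strand, and *Gm26735* (2591, 1989 and 2524 in IM4 and 0 in all IM5 libraries) has 98.8% of its exon length within *Sox4* on the opposite strand. RSEM divides shared fragments between such genes by a model, and strand use in the counting is not given in the sources used here. *Sox4* itself went from a mean of 9627 to 16268 reads (0.76 ± 0.09), and the sum of *Sox4* and *Gm26735* from 11995 to 16268.

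The same contrast without CHIR99021, IM2 against IM3, called 792 genes (3.8%), 512 higher and 280 lower. It shares no library with IM5 against IM4. In both comparisons 416 genes were higher and 223 lower, which is 75% of the DE genes with CHIR99021 and 80.7% of those without, and no gene was called in opposite directions. All 852 genes had the same sign in IM2 against IM3. The agreement was not limited to DE genes: over all genes tested, the log2 fold changes of the 2 comparisons had a Spearman correlation of 0.703. On average, the GC trend and the adult red blood cell genes differed between IM2 and IM3 in the same direction as between IM5 and IM4, and their part in this overlap was not tested. The GC trends of IM2 (-0.099, 0.161 and 0.174) and IM3 (-0.213, -0.077 and -0.415) overlapped, unlike those of IM5 and IM4. *Eomes* rose by 5.26 ± 0.15 and *Lefty1* by 5.18 ± 0.22 without CHIR99021, against 4.91 and 4.90 with it, and *Wt1* changed by -2.22 ± 0.09 against -2.55.

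The difference between both responses was tested as the interaction of Activin A and CHIR99021. It called 7 genes (0.0336%), 2 with a higher (0.0096%) and 5 with a lower (0.024%) log2 fold change in the presence of CHIR99021, and 2191 genes had an unadjusted p under 0.05. With 1 library left out, 2 to 6 genes were called, fewest without IM3 replicate 2. *Aldh1a2* fell by 1.77 with CHIR99021 and by 2.89 without it. *Tbx5* fell by 2.34 with CHIR99021 and by 1.27 without it, from similar levels of 2815 reads in IM4 and 2869 in IM3. *Kcnab1*, a potassium channel subunit gene, fell by 2.64 and 1.62 (a difference of -0.96 with the GC offset, which ended its call), *Shisa3* by 3.14 and 1.91, and *Gria1*, a glutamate receptor subunit gene, by 2.39 and 1.08. The bicarbonate transporter gene *Slc4a5* rose by 1.96 with CHIR99021 and was at 0.47 ± 0.20 without it, and lost its call with the GC offset (edgeR adjusted p = 0.0101) or the replicate block (edgeR adjusted p = 0.0132). *Tmem26* was at -0.84 ± 0.14 with CHIR99021 and 0.29 ± 0.14 without it and was not called in either comparison. Of the 213 genes called in IM5 against IM4 and not in IM2 against IM3, 10 had an interaction adjusted p of at most 0.01, so for most of them a different response in the other medium was not shown.

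**Figure D5:**
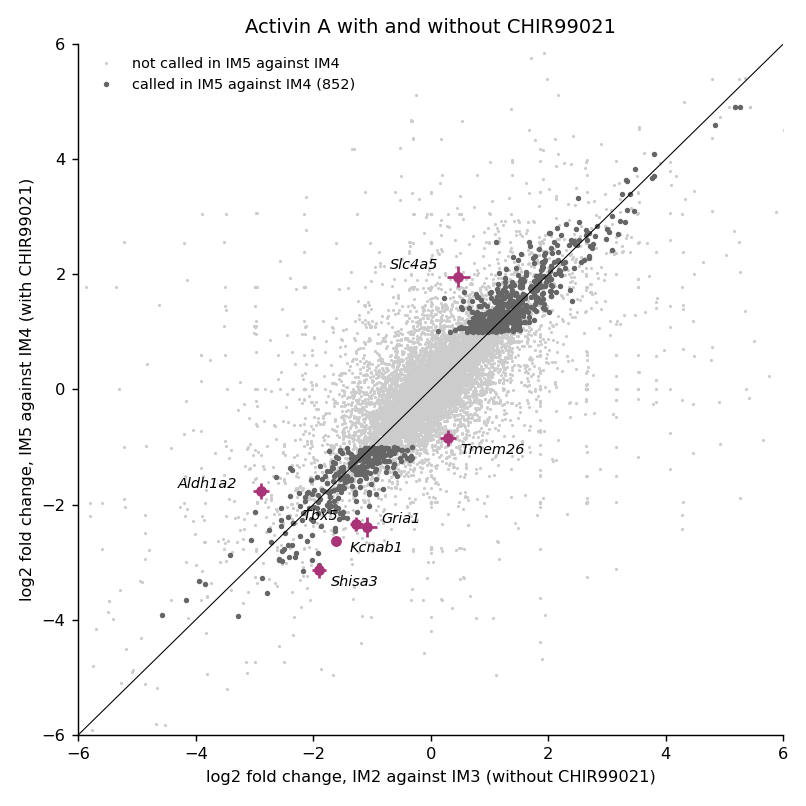
log2 fold change with Activin A in the presence of CHIR99021 (y axis, IM5 against IM4) and in its absence (x axis, IM2 against IM3) for the genes tested, with the diagonal of equal change. The 852 genes called with CHIR99021 are in dark gray and the 7 interaction genes, with standard errors, in purple; 70 genes lie outside the axes.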

How the data were processed

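RNA of 27 cell samples was sequenced as paired reads from TruSeq V2 libraries. According to the methods and processing notes, the authors trimmed reads with Cutadapt 1.9.1, mapped the reads with STAR 2.5.2a to the GRCm38 assembly with Ensembl transcripts and estimated abundance per gene with RSEM 1.3.0; replicates were not pooled. The expected counts the authors deposited carry no normalization between libraries, and the TPM values they deposited are scaled by effective length and to a fixed sum, with strand use not given in the sources used here. Effective lengths, the other deposited quantity, served only as an offset in an alternative. Each file lists 48795 genes, of which 48435 (99.26%) were matched to GENCODE M21, which is on the same build, for names, overlaps and GC content.

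Expected counts were rounded to whole numbers. Genes kept by filterByExpr were scaled with TMM factors and tested with the quasi-likelihood functions of edgeR 4.0.16 (R 4.3.3) in 1 model of all 27 libraries with a coefficient per group, as 9 groups share an estimate of the spread. Between pairs of replicates, the chi-square per degree of freedom was 6.97 to 14.23 in IM4 and 14.08 to 53.8 in IM5. The shared estimate does not carry this difference between the groups. Thresholds for DE follow the study's methods. DESeq2 1.42.0 was an alternative. Adjusted p-values are over all genes tested, and log2 fold changes are given with their SE. The steps were also tried on simulated counts with the same spread in all groups. That simulation does not cover the difference in spread between IM4 and IM5. Total counts set the counting error, and a floor of 3 counts covers that error only.

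Named were *Lefty1*, *Eomes* and *Hoxd11*, DE members of 26 gene lists, the 12 DE genes that rose most and the 12 that fell most with libraries that did not overlap, the 5 largest interactions in each direction, and list members below the thresholds with their values. *Sox4* and *Rap2b* were added after their values were seen, because a named gene lies within them. Members, lists and rules were chosen with earlier results of these data known. No list was tested, and its counts and median only describe it. Same-numbered replicates of IM4 and IM5 were checked for pairing before any blocked fit was compared. Other assays of the study were not analysed here. A listed item is not reported here.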

Additional observations from a re-analysis of the deposited data

Results flagged for a closer look

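The interaction test called 7 genes. As stated above, the GC trend and Activin A cannot be told apart in IM4 and IM5, which holds for these calls too. The value tested was the difference of the log2 fold change in IM5 against IM4 and that in IM2 against IM3 (edgeR's quasi-likelihood test, adjusted over all genes). It was 1.5 ± 0.28 for *Slc4a5* (edgeR adjusted p = 0.00872), 1.12 ± 0.19 for *Aldh1a2*, -1.02 ± 0.11 for *Kcnab1*, -1.07 ± 0.16 for *Tbx5* (edgeR adjusted p = 0.000666), -1.13 ± 0.19 for *Tmem26*, -1.23 ± 0.17 for *Shisa3* and -1.30 ± 0.23 for *Gria1*. The positive values go with a larger rise (*Slc4a5*) or a smaller fall (*Aldh1a2*) in the presence of CHIR99021, and the negative values with a larger fall, except that *Tmem26* was called in neither comparison. Of the 21 alternatives run for these genes, *Tbx5* and *Shisa3* kept their calls in 19 each, *Aldh1a2* in 13, *Kcnab1* in 12, *Tmem26* and *Gria1* in 10 each and *Slc4a5* in 4, and no value changed sign.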

How the results depend on the processing

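Counts of DE genes in IM5 against IM4 stayed within 1.5 times of 852 when the scaling, the test, the low-count filter, the libraries fitted, the p threshold or the GC offset was changed, and moved with the other thresholds: 1667 (1039 higher, 628 lower) without the minimum of 100 reads, 6631 (3344 higher, 3287 lower) without a minimum fold and 164 (95 higher, 69 lower) at a fold of at least 4. Without 1 replicate they ranged from 812 to 926, with 516 to 611 higher and 291 to 315 lower. The 7 interaction genes were less stable: 3 with the offset for effective gene length, 3 with only the groups compared, 3 with only the IM libraries, 12 with DESeq2's Wald test, 13 without the low-count filter, 36 without a minimum fold and 0 at a fold of at least 4, and 2 to 6 without 1 replicate (2 without IM3 replicate 2, 3 without IM2 replicate 1, IM2 replicate 3 or IM5 replicate 1, 4 without IM3 replicate 1 or IM4 replicate 3); the cause was not tested. The GC trend difference was 0.298 with genes split at the median GC content in place of the outer 25% on each side and 0.39 to 0.544 without 1 replicate, and the difference in the red blood cell sum was -18.5 to -12.8 CPM. Of 2232 recomputed values of named genes and interactions, 2090 kept their call, 142 lost it and 0 changed sign. The GC offset also added calls to lists. Falls went from 12 to 14 in the mesothelial list, from 6 to 7 in the genital ridge list and from 0 to 1 in the mesendoderm list. Rises went from 4 to 6 in the WNT list and from 2 to 3 in the list of Nodal ligands. Same-numbered IM4 and IM5 libraries had correlations of 0.012, -0.053 and 0.144, and those of IM2 and IM3 -0.029, 0.006 and -0.126, so the numbers were not taken as pairs, although IM3 and IM4, which both enter the interaction, had 0.177, 0.187 and 0.181. A fit with the replicate number as block called 854 genes (549 higher, 305 lower) and 6 interactions (*Slc4a5* lost), and with the block and the GC offset 770 (441 higher, 329 lower) and 5. At or under 3 counts in a library a gene was not detectable at this depth.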
